A study of Mus musculus with 24 samples.

Results

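Oxidative phosphorylation was followed through the nuclear genes for subunits of complexes I to V in C2C12 cells, a mouse myoblast line that stops dividing and fuses into myotubes in differentiation medium. The members were 47 named genes, and every probe set annotated to 1 of them, and to no other gene, was used. The tissue-specific forms of cytochrome oxidase were left out of the members. By this rule 46 of the 47 genes were read: 92 of 22626 probe sets on the array design titled MA belonged to 46 members, and 6 of 22511 on the design titled MB belonged to 5 members. Probe sets entered the test if at least 3 of the 12 arrays of their design had a signal of 30 or more. On MA 45 members were tested, among 8634 tested genes: 22 of complex I, 4 of complex II, 7 of complex III, 6 of complex IV and 6 of complex V. Cox7c, a small cytochrome oxidase subunit, was not tested, the MA signals of its 2 probe sets lying between 0.344 and 18.3. Ndufs6 was covered only by a probe set that its annotation also gives to Ndufs6b, so no value is given for it. In the probe sets used for the tested genes the lowest signal in any MA array was 85.0 (Ndufs4 in GM vector cells), so none passed the filter through a single group.

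The labels place the cells in 4 groups of 3 arrays per design: pSuperR_p68 in differentiation medium (DM), the empty pSuperR vector in DM, pSuperR_p68 in growth medium (GM) and the empty pSuperR vector in GM. pSuperR_p68 carries a short hairpin RNA (shRNA) that targets p68, an RNA helicase of the DEAD-box family, whose gene is Ddx5. All 4 groups had been transduced with a pSuperR construct, so cells without a construct were not analysed here. The sources used here do not give the time in DM, the composition of the media, or whether replicates were separate cultures. A p-value therefore rests on array-to-array spread alone, and that spread may be technical. The series states muscle gene expression and differentiation under interference with p68 and p72 as its subject.

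Oxidative phosphorylation couples the transfer of electrons from NADH and succinate to oxygen with the synthesis of ATP at the inner mitochondrial membrane. Complex I takes electrons from NADH, complex II from succinate, complex III passes them through cytochrome c to complex IV, which reduces oxygen, and complex V makes ATP from the proton gradient. Muscle fibres are rich in mitochondria, and nearly all subunits of the complexes are encoded in the nucleus and imported, while a few core subunits come from mitochondrial DNA. Bulk signals are set relative to all RNA of the culture, so fewer cells of a type and less RNA per cell cannot be told apart here.

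Promoters of the genes were searched for the letters of 3 motifs known from mitochondrial genes, on both strands: GCGCATGC of NRF1, CCGGAAG of the ETS family (to which GABP belongs) and AAGATGGCG of YY1. The ETS and YY1 letters can overlap in the 3 bases AAG. RefSeq windows of GRCm38.p6, from 250 bases before to 50 after a gene's start, were at hand for 36 of the 47 members, 41 windows in all. The NRF1 letters lay in 9.76% of these windows and in 2.71% of all 32851 windows, the ETS letters in 19.51% and 8.86%, and the YY1 letters in 12.2% and 1.4%. The windows of the 2 members with the largest rise in DM are printed because each holds 1 match, in capitals. That of Ndufs4 (chr13:114388045-114388344, minus strand) holds the YY1 letters, starting 36 bases after the start of the gene, and that of Ndufa6 (chr15:82354242-82354541, minus strand) holds the NRF1 letters on the strand opposite to the gene.
Ndufs4: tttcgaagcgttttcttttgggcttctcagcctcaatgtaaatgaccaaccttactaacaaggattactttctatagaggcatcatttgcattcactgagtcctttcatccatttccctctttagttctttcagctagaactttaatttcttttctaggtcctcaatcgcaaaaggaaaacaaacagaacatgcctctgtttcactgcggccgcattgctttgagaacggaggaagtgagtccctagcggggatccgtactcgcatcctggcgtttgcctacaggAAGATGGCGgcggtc
Ndufa6: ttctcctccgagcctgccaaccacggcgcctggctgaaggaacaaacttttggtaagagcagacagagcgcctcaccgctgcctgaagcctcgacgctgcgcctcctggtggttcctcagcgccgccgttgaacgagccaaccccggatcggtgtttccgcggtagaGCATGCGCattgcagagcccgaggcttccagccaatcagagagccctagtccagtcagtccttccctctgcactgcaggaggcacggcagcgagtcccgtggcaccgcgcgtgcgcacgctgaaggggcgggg
No window was at hand for Ndufs1, the next by size of rise. The windows of Ndufa5, which follows it, and of Sdha, first in complex II, held none of the 3 motifs. A match is a run of letters and was not tested as a binding site.

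Ddx5, the target of the shRNA, had signals of 373, 302 and 302 in DM shRNA cells against 673, 541 and 408 in DM vector cells. It fell there, with a log2 change of -0.68 ± 0.15 (limma, adjusted p = 0.00677). Its GM signals were 351, 388 and 376 in shRNA cells and 483, 420.4 and 489 in vector cells, a change of -0.31 ± 0.15 that did not pass (adjusted p = 0.287). Of 6 tested markers of the skeletal muscle lineage (Myod1, Myf5, Myog, Des, Ckm and Myh3), 5 rose in DM in vector cells and 4 in shRNA cells. Their summed signal was 13868 to 15629 in DM shRNA cells, 17889 to 26639 in DM vector cells, 2699 to 3192 in GM shRNA cells and 3315 to 3675 in GM vector cells, and 3 of the 6 fell with the shRNA in DM. Myh3 reached the filter in DM arrays only, with GM signals of 4.70 or lower, so its rises in DM were fixed by the filter. The summed signals of adipocyte, macrophage, and osteoblast and cartilage markers stayed at or below 521 in every array. In DM shRNA cells the adipocyte markers averaged from 0.998 ± 0.0922 (Adipoq) to 143 ± 2.58 (Cebpa). The macrophage markers there averaged from 6.75 ± 2.15 (Ptprc) to 74.3 ± 16.8 (Csf1r) (SD, n = 3). The adipocyte sum was 431 to 521 in GM shRNA cells and 264 to 330 in GM vector cells. With the shRNA in GM 1 of 2 tested adipocyte markers rose and 0 fell. Lpl averaged 178 ± 26.6 in GM shRNA cells and 35.9 ± 5.11 in GM vector cells (SD, n = 3 each). Between DM and GM in vector cells 0 adipocyte markers rose and 1 of 2 fell, 1 of 4 macrophage markers rose, 1 of 3 osteoblast and cartilage markers fell, and of 4 smooth muscle markers 1 rose and 2 fell. Of all tested genes 23.2% rose and 27.1% fell there. Of the smooth muscle markers, Cnn1 reached the filter in GM arrays only, with DM signals of 14.2 or lower, so its fall in DM was fixed by the filter. Smooth muscle sums ran from 7345 to 13157 and overlapped between groups. Replicate 3 of the DM vector group stood furthest from its own group on MA, as its mean correlation with them was 0.951, where the other arrays had 0.962 to 0.983. The Gapdh control probe sets gave a mean 3' over 5' ratio, in log2 units, of -0.16 ± 0.092 in DM shRNA, -0.17 ± 0.058 in DM vector, -0.14 ± 0.068 in GM shRNA and -0.083 ± 0.042 in GM vector arrays (SD, n = 3 each). The part of these differences in the results on the subunit genes was not tested.

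Values below are the deposited signals, in arbitrary units on a linear scale, of the probe set with the highest mean for each gene. Changes are log2 changes of (signal + 15) ± standard error from a limma fit over the 12 arrays of a design, and a gene rose or fell where its p, adjusted by Benjamini-Hochberg over all tested probe sets, was under 0.05. Signals of different probe sets are not on 1 scale and are not set against each other.

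**Figure D1:**
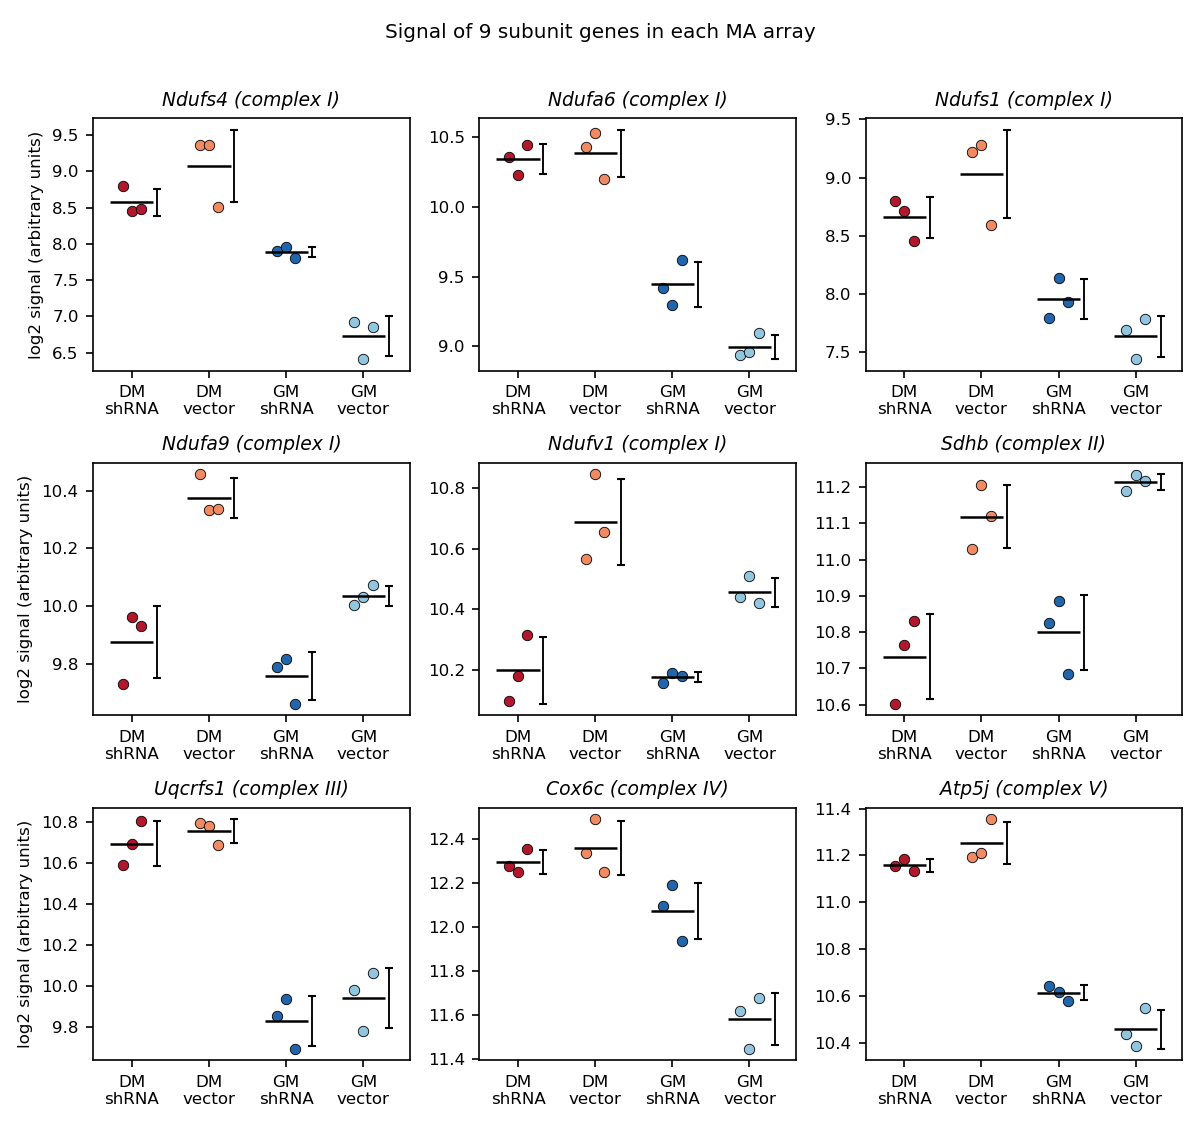
Log2 signal, with no pseudocount, of 9 subunit genes in each MA array, from left to right in DM shRNA, DM vector, GM shRNA and GM vector cells. Points are arrays, lines are group means and bars are the SD of 3 arrays. For Ndufs4 the 3 GM vector arrays lie lowest and GM shRNA arrays above them, and for Ndufa9, Ndufv1 and Sdhb both shRNA groups lie below the vector group of the same medium.

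In vector cells the subunit genes moved mostly upward with differentiation. Of the 45 tested members 26 rose and 1 fell in DM against GM, against 23.2% of all tested genes that rose and 27.1% that fell. The median change of the members was 0.39, beside -0.02 over all tested genes. Complex I gave 15 of the rises and the fall, out of 22 tested genes, with a median of 0.47. Complex II gave 1 rise of 4, complex III 4 of 7, complex IV 4 of 6 and complex V 2 of 6, with medians of 0.21, 0.44, 0.56 and 0.19. Leaving out 1 array at a time gave 23 to 26 rises.

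The largest rise of any member was that of Ndufs4, an accessory subunit of complex I that is needed for a stable enzyme. Its signals were 658, 660.1 and 363 in DM vector cells and 122, 85.0 and 115 in GM vector cells, a log2 change of 2.20 ± 0.20 (limma, adjusted p = 3.77e-07). Every DM array lay above every GM array, and DM vector replicate 3 was the lowest of the DM arrays by a wide gap. A second probe set of Ndufs4 rose by 0.92 ± 0.17 (adjusted p = 0.000379). Ndufa6, a small accessory subunit of complex I, had signals of 1379, 1479 and 1177 in DM vector cells and 489, 497 and 547 in GM vector cells, a change of 1.37 ± 0.12 (limma, adjusted p = 2.09e-07). Its lowest DM array was well above its highest GM array.

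Ndufs1, the largest core subunit of complex I and a carrier of its iron-sulfur clusters, had 598, 621 and 387 in DM vector cells against 206, 173 and 219.7 in GM vector cells, a change of 1.33 ± 0.17 (limma, adjusted p = 1.22e-05). The groups did not overlap, and DM vector replicate 3 was again the lowest of the DM arrays. For Ndufa5, an accessory subunit of the matrix arm, the signals were 570.0, 529 and 255 in DM vector cells and 189, 234 and 193 in GM vector cells, a change of 1.01 ± 0.22 (limma, adjusted p = 0.00167). Here DM vector replicate 3 lay close to the highest GM array, and without it the change was 1.36. Ndufa1 (change 0.99 ± 0.09), Ndufs3 (0.90 ± 0.12) and Ndufv2 (0.81 ± 0.09) were the next complex I genes by size. The 6 nuclear core subunits of complex I, which hold its redox centres, had 4 rises and a median of 0.69, and the 16 tested accessory subunits had 11 rises, 1 fall and a median of 0.40.

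Ndufb8, an accessory subunit of the membrane arm, was the member that fell. Its signals were 2627, 2053 and 2076 in DM vector cells and 2985, 3180.4 and 3029.9 in GM vector cells, a change of -0.45 ± 0.15 (limma, adjusted p = 0.0183). All DM arrays lay below all GM arrays. The fall did not pass without DM vector replicate 2 (adjusted p = 0.0716) or without GM vector replicate 3 (adjusted p = 0.0583), and a second member fell without DM vector replicate 1. In shRNA cells Ndufb8 changed by 0.15 ± 0.15 between the media (adjusted p = 0.484).

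In complex II, Sdha, the flavoprotein that oxidises succinate, had 1082, 946 and 973 in DM vector cells against 614, 535 and 698 in GM vector cells and rose by 0.69 ± 0.13 (limma, adjusted p = 0.00049), with no overlap between the groups. The other 3 complex II genes, the iron-sulfur subunit Sdhb and the membrane anchors Sdhc and Sdhd, did not pass in vector cells by their brightest probe sets, with changes of -0.09 ± 0.10, 0.23 ± 0.15 and 0.20 ± 0.11. The other tested probe set of Sdhd, a dimmer one, fell in vector cells, by 0.57, so the direction for Sdhd depends on the probe set read. In complex III, Uqcrfs1, the Rieske iron-sulfur protein, had 1779, 1759 and 1651 in DM vector cells and 1009.6, 877 and 1070.3 in GM vector cells, a change of 0.81 ± 0.11 (limma, adjusted p = 1.8e-05). The DM arrays of this gene lay close together and well above the GM arrays. Uqcrq, a small subunit of the complex, had 2559, 3322 and 2083 in DM vector cells against 1578, 1425 and 1619.8 in GM vector cells, a change of 0.76 ± 0.17 (limma, adjusted p = 0.00163). Its arrays did not overlap, but DM vector replicate 2 stood above the other DM arrays, and in the fit over probe sets whose names do not end in _x_at or _s_at the change was 0.62 (adjusted p = 0.0729). Uqcrb (0.66 ± 0.11) and the core protein Uqcrc2 (0.44 ± 0.12) rose too, whereas the other core protein, Uqcrc1, changed by 0.00 ± 0.13.

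In complex IV, Ndufa4, a subunit now assigned to cytochrome oxidase despite its name, had 2192, 2699.7 and 2067 in DM vector cells and 1194, 989.5 and 1360.4 in GM vector cells, a change of 0.97 ± 0.16 (limma, adjusted p = 0.000138). The lowest DM array was above the highest GM array. Cox6c, a small nuclear-encoded subunit, had 5176, 5755 and 4868 in DM vector cells against 3146, 2794 and 3279.7 in GM vector cells and rose by 0.77 ± 0.10 (limma, adjusted p = 2.02e-05), or by 0.44 in the mean of its probe sets. Its groups were likewise separate. Cox5a, another nuclear-encoded subunit, was the member whose probe sets passed in opposite directions. The brightest had 4119, 5612 and 6225 in DM vector cells and 3167, 3687 and 3194 in GM vector cells, a change of 0.65 ± 0.14 (adjusted p = 0.00132), while a dimmer one, whose name ends in _x_at, had 684, 352 and 609.7 in DM vector cells against 818, 1059 and 959 in GM vector cells, a change of -0.81 ± 0.31 (adjusted p = 0.0389). The mean of its 3 probe sets changed by -0.10, so the direction for Cox5a depends on the probe set read. Cox5b rose as well (0.47 ± 0.17), with 1 DM array inside the range of the GM arrays, and did not pass without any 1 of 4 arrays (adjusted p up to 0.139).

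In complex V, Atp5j, a subunit of the peripheral stalk, had 2344, 2367 and 2619 in DM vector cells against 1387, 1339.9 and 1499 in GM vector cells, a change of 0.79 ± 0.09 (limma, adjusted p = 3.79e-06). Its DM arrays were all far above its GM arrays. Atp5o, the oligomycin sensitivity conferring protein of the same stalk, had 3846, 4696 and 4292 in DM vector cells and 3523, 2749 and 3517 in GM vector cells, a change of 0.39 ± 0.14 (limma, adjusted p = 0.0329). This call did not pass without DM vector replicate 2, without DM vector replicate 3 or without GM vector replicate 3 (adjusted p = 0.12, 0.0501 and 0.16), and in the mean of its probe sets the change was 0.07. The catalytic core genes Atp5a1 (-0.02 ± 0.12), Atp5b (0.15 ± 0.12), Atp5c1 (0.12 ± 0.11) and Atp5d (0.24 ± 0.15) did not pass by their brightest probe sets. The other tested probe set of Atp5d rose, by 0.36 in vector cells and 0.44 in shRNA cells. Of the 3 probe sets of Atp5a1, 1 fell in vector cells (-0.28), and its change was larger in shRNA cells by 0.53, a difference that passed. Among the 25 members with several tested probe sets, the probe sets of 17 all changed in 1 direction in this comparison and those of 8 differed in sign. Of all 86 tested probe sets of members 42 rose and 4 fell, where 23.9% of all 14367 tested probe sets rose and 25.4% fell.

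**Figure D2:**
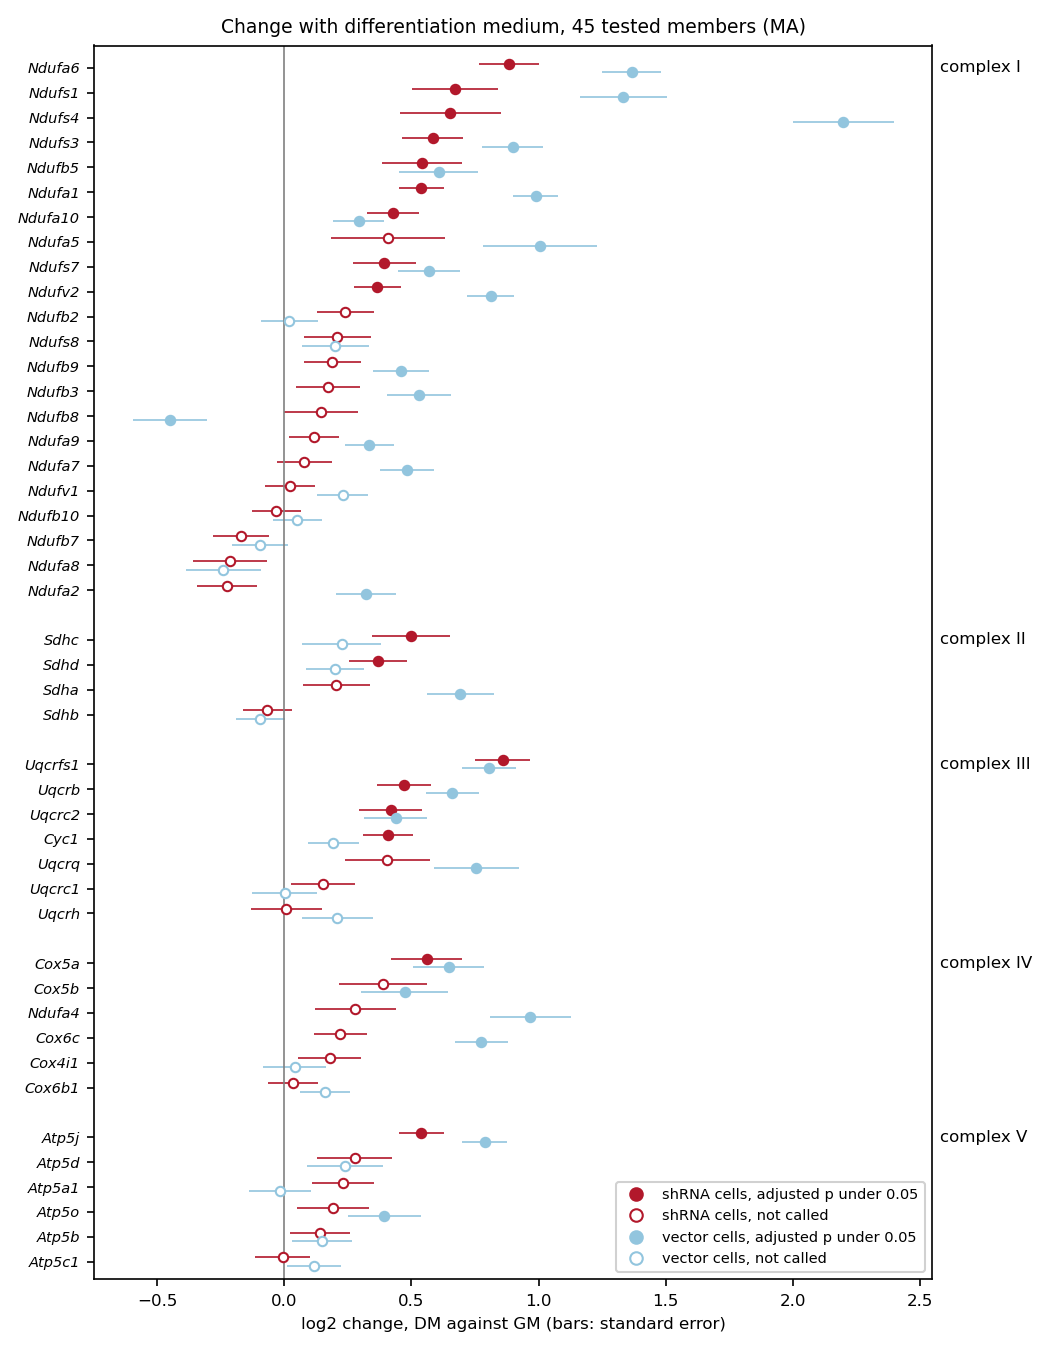
Log2 change of (signal + 15), DM against GM, of the 45 tested members on MA, by complex, in shRNA cells (dark points) and vector cells (light points), sorted within a complex by the change in shRNA cells. Bars are standard errors of the limma fit and filled points have an adjusted p under 0.05: 17 in shRNA cells and 27 in vector cells.

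In shRNA cells 17 of the 45 members rose in DM against GM and 0 fell, against 16.2% of all tested genes that rose and 18.9% that fell. At an unadjusted p under 0.05 the limma fit had 20 members. The share of all tested genes at that threshold is not given here, so this count is no result about the members. The median change of the members was 0.24, beside -0.02 over all tested genes. Complex I had 9 rises of 22, complex II 2 of 4, complex III 4 of 7, complex IV 1 of 6 and complex V 1 of 6. The largest was that of Ndufa6, with 1312, 1199.5 and 1397 in DM shRNA cells and 685, 630.4 and 786 in GM shRNA cells, a change of 0.88 ± 0.12 (limma, adjusted p = 3.88e-05). The groups were apart by a wide gap. Uqcrfs1 was next, with 1539, 1652 and 1789 in DM shRNA cells and 923, 978 and 828 in GM shRNA cells, a change of 0.86 ± 0.11 (limma, adjusted p = 2.19e-05), again without overlap. With the mean of all probe sets of a gene 10 members rose.

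Vector and shRNA cells have no arrays in common, but both comparisons use 1 estimate of the spread from all 12 arrays. Their calls are thus linked. In both, 14 members rose: 82.4% of the 17 in shRNA cells and 53.8% of the 26 in vector cells. Over all tested genes the shares were close to these, as 1119 rose in both, 80.2% of the 1396 in shRNA cells and 55.9% of the 2003 in vector cells. The 14 members were Ndufa1, Ndufa6, Ndufa10, Ndufb5, Ndufs1, Ndufs3, Ndufs4, Ndufs7 and Ndufv2 of complex I, Uqcrb, Uqcrc2 and Uqcrfs1 of complex III, Cox5a of complex IV and Atp5j of complex V. The 3 others that passed in shRNA cells were Cyc1 (0.41 ± 0.10 in shRNA cells, 0.19 ± 0.10 in vector cells), Sdhc (0.50 ± 0.15 in shRNA cells, 0.23 ± 0.15 in vector cells) and Sdhd (0.37 ± 0.11 in shRNA cells, 0.20 ± 0.11 in vector cells). For none of these 3 did the difference between the constructs pass. The other tested probe sets of Sdhc and Sdhd changed by 0.08 and 0.03 in shRNA cells and did not pass. In shRNA cells the calls of Ndufb5, Ndufs4, Ndufs7, Uqcrc2, Sdhc and Sdhd were each lost when 1 of several arrays was left out, with adjusted p-values up to 0.109, as was that of Ndufa10 in vector cells (up to 0.0928). In the mean over the tested members of each array, expressed as a deviation from the mean of the 12 arrays on the log2 scale, the level was 0.090 ± 0.058 in DM shRNA, 0.28 ± 0.050 in DM vector, -0.19 ± 0.078 in GM shRNA and -0.18 ± 0.050 in GM vector cells (SD, n = 3 each). The single arrays ran from 0.025 to 0.139 in DM shRNA, from 0.251 to 0.340 in DM vector, from -0.266 to -0.111 in GM shRNA and from -0.220 to -0.122 in GM vector cells. The lowest DM vector array was thus above the highest DM shRNA array, and the 2 GM groups overlapped.

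**Figure D3:**
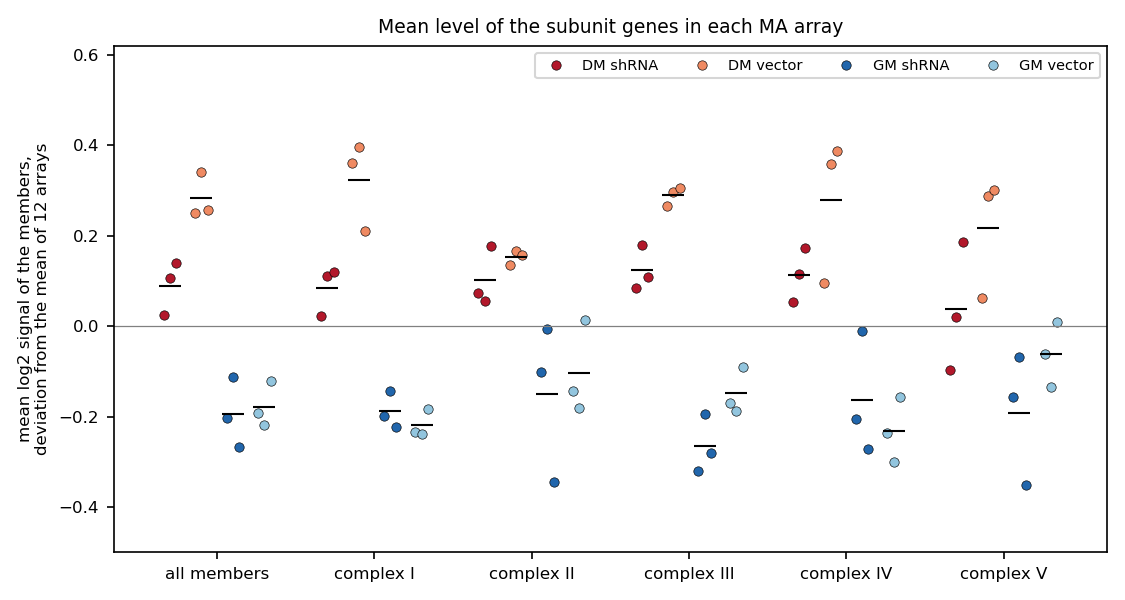
Mean log2 level of (signal + 15) of the tested members in each MA array, as the deviation from the mean of 12 arrays, for all members and by complex. Points are arrays and lines are means of 3 arrays. For complex I the DM vector arrays lie between 0.211 and 0.396 and the DM shRNA arrays between 0.023 and 0.119, and for complexes II, IV and V these 2 groups overlap.

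With the shRNA in DM, the subunit genes that changed were lower. Of the 45 members 7 fell and 0 rose, against 6.67% of all tested genes that fell and 12.1% that rose, with a median of -0.22 beside 0.06 over all tested genes. At an unadjusted p under 0.05 the limma fit had 20 members, again without the share of all tested genes. All 7 that fell belonged to complexes I (6 of 22) and II (1 of 4), with medians of -0.28 and -0.06. In complexes III, IV and V 0 of the 19 tested genes passed, with medians of -0.17, -0.20 and -0.22. The medians thus do not set complexes I and II apart from the others. Leaving out 1 array at a time gave 0 to 1 falls in complex III and 0 to 2 in complex IV. Of the 6 core subunits of complex I 2 fell, with a median of -0.37 over the 6, and 4 of the 16 accessory subunits fell, with a median of -0.18. The number that fell was 2 without DM shRNA replicate 1, 3 without DM shRNA replicate 2 and 4 without DM vector replicate 2, and 5 to 10 without any 1 of the other arrays. Centring each array on its median changed the split of all tested genes to 730 higher and 711 lower, where the deposited scaling gave 1048 and 576, and 12 members then fell. Without a mean-variance trend 3 members fell, and 2 fell with only the DM groups in the fit.

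Ndufa9, an accessory subunit at the junction of the matrix and membrane arms of complex I, had 850.5, 999 and 977 in DM shRNA cells against 1404, 1289 and 1292 in DM vector cells, a change of -0.49 ± 0.10 (limma, adjusted p = 0.00275). Every shRNA array lay below every vector array. Ndufv1, the core subunit that binds NADH and the flavin, had 1098, 1162 and 1276 in DM shRNA cells and 1517, 1837 and 1612 in DM vector cells, a change of -0.48 ± 0.10 (limma, adjusted p = 0.00348). All 3 of its probe sets fell, with changes of -0.48 to -0.57. These 2 calls passed without any 1 of the 12 arrays.

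Ndufs7, the core subunit whose iron-sulfur cluster hands electrons to ubiquinone, had 1573, 1752 and 2026 in DM shRNA cells and 2123, 2583 and 2545 in DM vector cells, a change of -0.44 ± 0.12 (limma, adjusted p = 0.0233), and both of its probe sets fell. Its groups did not overlap. Ndufb3, of the membrane arm, had 582, 566 and 619.6 in DM shRNA cells against 911, 801 and 690.3 in DM vector cells, a change of -0.42 ± 0.13 (limma, adjusted p = 0.0308). The shRNA arrays lay in a narrow band below the vector arrays, which were spread more widely. Ndufb9, also of the membrane arm, had 3645, 3482 and 3264 in DM shRNA cells and 3863, 4469.7 and 5179 in DM vector cells, a change of -0.37 ± 0.11 (limma, adjusted p = 0.034). Its groups were apart by a small gap, and both probe sets fell. Ndufb10, the smallest fall among the 7 that passed, fell by 0.32 ± 0.10 (adjusted p = 0.0319), less than the changes of some members that did not pass, such as Ndufs4 (-0.49 ± 0.20, adjusted p = 0.111).

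Sdhb, the subunit of complex II that passes electrons from the flavin to ubiquinone, fell with the shRNA in both media. In DM its signals were 1555, 1739.9 and 1822 in shRNA cells and 2092, 2363 and 2224 in vector cells, a change of -0.38 ± 0.10 (limma, adjusted p = 0.0132). In GM they were 1816, 1893 and 1647 in shRNA cells and 2336, 2406 and 2381 in vector cells, a change of -0.41 ± 0.10 (limma, adjusted p = 0.0208). No shRNA array reached a vector array of the same medium. Sdhb was the 1 member that passed in both media, which is 14.3% of the 7 that fell in DM and 25% of the 4 that fell in GM. Over all tested genes 61 fell in both media, 10.6% of the 576 in DM and 26.3% of the 232 in GM. The GM call of Sdhb was lost without any 1 of 5 of the GM arrays (adjusted p up to 0.0924). Ndufs7, Ndufb3, Ndufb9, Ndufb10 and Sdhb each missed the threshold in DM when 1 of several arrays was left out, and the highest adjusted p was 0.106 for Ndufs7 and Ndufb3 (without DM shRNA replicate 1 for Ndufs7 and replicate 2 for Ndufb3), 0.116 for Ndufb9 (without DM shRNA replicate 3), 0.114 for Ndufb10 and 0.0662 for Sdhb (without DM shRNA replicate 1).

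Some members had dimmer probe sets that fell in DM although the brightest did not. For Ndufs8, a core iron-sulfur subunit, the brightest probe set changed by -0.38 ± 0.13 (adjusted p = 0.0623), and 3 of its 6 tested probe sets fell. For Sdha the brightest changed by -0.12 ± 0.13 and the other fell by 0.79 ± 0.13 (adjusted p = 0.000554). Over all 86 tested probe sets of members 15 fell and 0 rose in DM, where 6.24% of all 14367 tested probe sets fell and 10.7% rose.

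**Figure D4:**
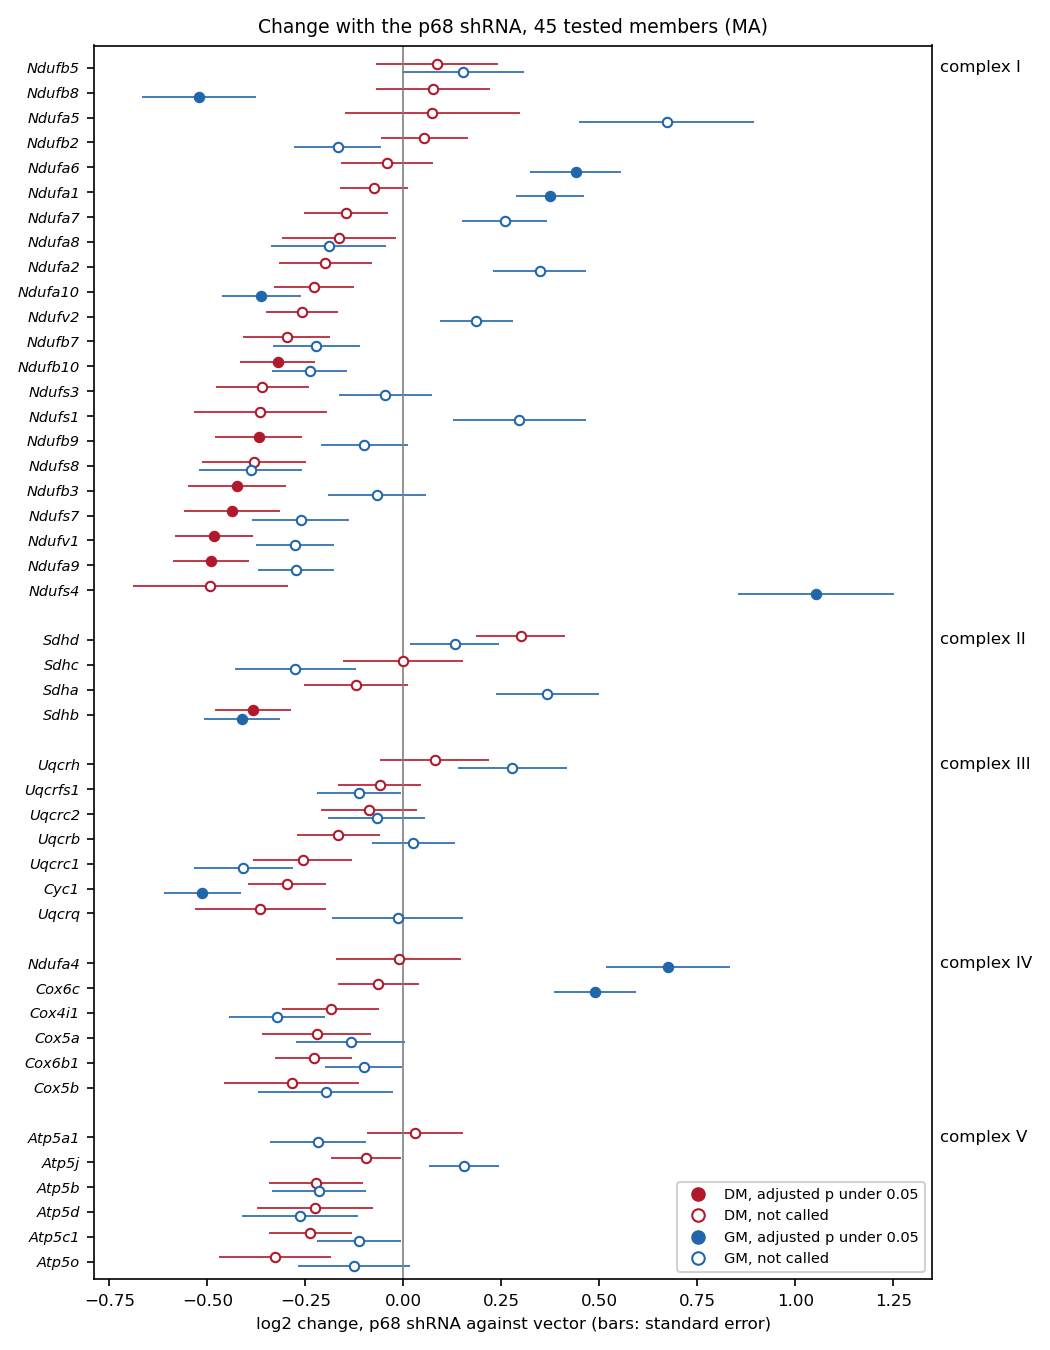
Log2 change of (signal + 15), p68 shRNA against vector, of the 45 tested members on MA, by complex, in DM (red) and GM (blue), sorted within a complex by the change in DM. Bars are standard errors of the limma fit and filled points have an adjusted p under 0.05: 7 in DM, all below 0, and 9 in GM, of which 5 lie above 0. Ndufs4 is the highest point in GM, at 1.05.

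In GM the shRNA went with changes in both directions. Of the 45 members 5 rose and 4 fell, against 4.35% of all tested genes that rose and 2.69% that fell, with a median of -0.11 beside 0.04 over all tested genes. The limma fit had 19 members at an unadjusted p under 0.05, again without the share of all tested genes. The rises were in complexes I (3) and IV (2), and the falls in complexes I (2), II (1) and III (1). The rises numbered 3 without GM shRNA replicate 2, GM shRNA replicate 3 or GM vector replicate 4, 2 without GM shRNA replicate 4 or GM vector replicate 1 and 1 without GM vector replicate 3. The falls numbered 2 without DM shRNA replicate 2 or 3, DM vector replicate 2, GM shRNA replicate 2 or 3 or GM vector replicate 1, and 1 without GM shRNA replicate 4 or GM vector replicate 3 or 4. With each array centred on its median 1 member rose, and the split of all tested genes was 222 higher and 330 lower, where the deposited scaling gave 376 and 232. Without a mean-variance trend 3 rose and 1 fell, and without a filter 2 fell.

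Ndufs4 had 238, 248 and 224 in GM shRNA cells against 122, 85.0 and 115 in GM vector cells, a change of 1.05 ± 0.20 (limma, adjusted p = 0.00609), and the call held without any 1 array. Its shRNA arrays were close together and all well above the vector arrays. The second tested probe set of Ndufs4 changed by 0.50 here and did not pass. Ndufa4 had 1477, 2259 and 1989 in GM shRNA cells and 1194, 989.5 and 1360.4 in GM vector cells, a change of 0.68 ± 0.16 (limma, adjusted p = 0.0202). The lowest shRNA array, replicate 2, lay not far above the highest vector array. Cox6c had 4372, 4671 and 3922 in GM shRNA cells and 3146, 2794 and 3279.7 in GM vector cells, a change of 0.49 ± 0.10 (limma, adjusted p = 0.0118), with separate groups. For Ndufa6 the signals were 685, 630.4 and 786 in GM shRNA cells and 489, 497 and 547 in GM vector cells, a change of 0.44 ± 0.12 (limma, adjusted p = 0.0367), and the groups did not overlap. The fifth, Ndufa1, rose by 0.37 ± 0.09.

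Among the members lower with the shRNA in GM, Cyc1, the cytochrome c1 of complex III, had 2720.2, 2816 and 2721 in GM shRNA cells against 3779, 4268 and 3770.5 in GM vector cells, a change of -0.51 ± 0.10 (limma, adjusted p = 0.00699). Its shRNA arrays lay far below its vector arrays. Ndufb8 had 2509, 1689.9 and 2285 in GM shRNA cells and 2985, 3180.4 and 3029.9 in GM vector cells, a change of -0.52 ± 0.15 (limma, adjusted p = 0.0469). Its shRNA arrays were spread widely below a tight vector group, and without GM shRNA replicate 3, the lowest, the adjusted p was 0.18. Ndufa10, an accessory subunit of complex I, fell by 0.36 ± 0.10 (adjusted p = 0.0475). The calls for Cyc1 and Ndufs4 passed without any 1 array, whereas those for Ndufa4, Cox6c, Ndufa6 and Ndufa1 were each lost without any 1 of 2 to 5 of the GM arrays, with adjusted p-values up to 0.111, 0.0738, 0.155 and 0.0866. The calls for Ndufb8 and Ndufa10 were lost without any 1 of 8 and 9 of the 12 arrays, 3 of them DM arrays for each gene, with adjusted p-values up to 0.18 and 0.157.

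The difference between the constructs in the DM against GM change, taken as shRNA minus vector cells, was tested as an interaction. For 4 of the 45 members it passed and was negative and for 0 it was positive, against 4.57% of all tested genes with a negative and 6.01% with a positive difference. The limma fit had 11 members at an unadjusted p under 0.05, again without the share of all tested genes. The median over the members was -0.13 beside 0.02 over all tested genes. Over all 86 tested probe sets of members 6 differences were negative and 1 was positive. Of all 14367 tested probe sets 643 were negative and 787 positive. The dimmer probe set of Sdha and 1 of the 5 of Ndufa7 were among the negative ones, and the positive one was of Atp5a1. By sign alone, 31 members had a negative difference and 14 a positive one. The share of all tested genes is not given here, so this count is no result about the members. The comparisons in GM and between the media in vector cells share the GM vector arrays with this test, so their values are not separate evidence.

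For Ndufs4 the change between DM and GM was 0.65 ± 0.20 in shRNA cells and 2.20 ± 0.20 in vector cells, and the difference was -1.54 ± 0.28 (limma, adjusted p = 0.00317). Its signals in DM shRNA cells were 443, 349 and 356, of which replicate 1 was above and the other replicates were below DM vector replicate 3, whereas the other DM vector arrays were all higher. In the second tested probe set of Ndufs4 the difference was -0.73 and did not pass. For Cox6c the change was 0.22 ± 0.10 in shRNA cells and 0.77 ± 0.10 in vector cells, with signals of 4969, 4875 and 5241 in DM shRNA cells, and the difference was -0.55 ± 0.15 (limma, adjusted p = 0.0273). In DM the constructs overlapped for Cox6c, and in GM they did not. In the mean of its probe sets the Cox6c difference was -0.36 (adjusted p = 0.137).

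Ndufa1, a small membrane subunit needed for the assembly of complex I, had 2719, 2883 and 2792 in DM shRNA cells, 2793, 2998 and 3057 in DM vector cells, 1872, 1845 and 2052 in GM shRNA cells and 1478, 1459 and 1499.9 in GM vector cells. The difference was -0.45 ± 0.12 (limma, adjusted p = 0.0333): the GM vector arrays were the lowest, the GM shRNA arrays lay above them, and the DM groups overlapped. Ndufv2, a core iron-sulfur subunit next to Ndufv1 in the enzyme, had 1888, 1852 and 1844 in DM shRNA cells, 2054, 2406 and 2243 in DM vector cells, 1420.4, 1482 and 1419.7 in GM shRNA cells and 1238, 1207 and 1352 in GM vector cells. Its difference was -0.45 ± 0.13 (limma, adjusted p = 0.0439), with shRNA arrays below vector arrays in DM and above them in GM. In the mean of its probe sets this difference was -0.23 (adjusted p = 0.451).

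The number of negative differences was 1 without DM shRNA replicate 1 or 2, DM vector replicate 2 or GM vector replicate 1 or 3, 2 without DM shRNA replicate 3, any GM shRNA array or GM vector replicate 4, and 9 without DM vector replicate 3. Without DM vector replicate 1, 4 differences were negative and 1 was positive. The difference for Ndufs4 passed without any 1 array, with adjusted p-values up to 0.0122. Those for Cox6c, Ndufa1 and Ndufv2 were lost without 7, 9 and 10 of the 12 arrays, each left out in turn. These 3 also did not pass with median centring (adjusted p = 0.0632, 0.0576 and 0.0825), without a filter (0.0619, 0.0504 and 0.0594) or without a mean-variance trend (0.0686, 0.086 and 0.101), and Ndufv2 did not pass with quantile normalization (0.0777). By the probe set used for each gene, 12 of the 45 members did not pass in any of the 5 comparisons: Ndufa8, Ndufb2, Ndufb7 and Ndufs8 of complex I, Uqcrc1 and Uqcrh of complex III, Cox4i1 and Cox6b1 of complex IV, and Atp5a1, Atp5b, Atp5c1 and Atp5d of complex V. Dimmer probe sets of Ndufs8, Atp5a1 and Atp5d did pass.

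Other genes of the pathway were described by lists. The shares of all tested genes stand here once, for all lists. In DM against GM 23.2% rose and 27.1% fell in vector cells, and 16.2% rose and 18.9% fell in shRNA cells. With the shRNA 12.1% rose and 6.67% fell in DM, and 4.35% rose and 2.69% fell in GM. In the interaction 4.57% were negative and 6.01% positive. A list count near these shares is no result about the list. Of 28 tested subunit genes outside the members, 16 rose and 2 fell in DM against GM in vector cells (median 0.37) and 8 rose and 1 fell in shRNA cells (0.19). Ndufs5, an accessory subunit of complex I, averaged 1328 ± 74.0 in DM vector cells and 583 ± 98.2 in GM vector cells (SD, n = 3), a change of 1.18 ± 0.14 (limma, adjusted p = 5.64e-06). With the shRNA 0 rose and 2 fell in DM, Atp5g1 (-0.62 ± 0.15) and Ndufa3 (-0.32 ± 0.10), and 1 rose and 0 fell in GM. In the interaction 1 was negative and 0 were positive. Of the 3 muscle forms of cytochrome oxidase subunits, Cox6a2 and Cox8b rose in DM in vector cells and fell with the shRNA in DM. Cox8b reached the filter in DM arrays only, so its rise in DM was fixed by the filter, and its GM signals were 20.9 or lower. Cox7a1 reached the filter in the 3 DM vector arrays only, with signals of 25.3 or lower elsewhere, so its differences from that group were fixed by the filter and are not counted here. Cox6a2 averaged 1128 ± 118 in DM shRNA cells, 4203 ± 588 in DM vector cells, 42.6 ± 6.41 in GM shRNA cells and 43.6 ± 18.4 in GM vector cells (SD, n = 3 each), a change of -1.88 ± 0.19 with the shRNA in DM (limma, adjusted p = 9.61e-06).

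Of 33 tested assembly factors, which help to build the complexes without staying in them, 15 rose in DM in vector cells and 0 fell (median 0.35) and 6 rose and 2 fell in shRNA cells (0.17). Uqcc1, an assembly factor of complex III, averaged 161 ± 14.8 in DM shRNA cells, 320.4 ± 55.7 in DM vector cells, 129.6 ± 14.95 in GM shRNA cells and 101 ± 12.2 in GM vector cells (SD, n = 3 each), and fell by 0.92 ± 0.15 with the shRNA in DM (limma, adjusted p = 0.000542). It was 1 of 3 assembly factors that fell there, with Uqcc3 (-0.43 ± 0.12) among them, and 2 rose with the shRNA in GM. The interaction was negative for 4 of them and positive for 0. Among 15 tested regulators of mitochondrial genes, DM gave 2 rises and 4 falls in vector cells and 2 rises and 1 fall in shRNA cells. Of all tested genes 23.2% rose and 27.1% fell in vector cells, and 16.2% and 18.9% in shRNA cells. These counts are thus no result about the regulators. In vector cells Tfb2m, a mitochondrial transcription factor, changed by 1.07 ± 0.23 and Polg, the mitochondrial DNA polymerase, by -0.63 ± 0.11. Ppargc1b, a coactivator of mitochondrial genes, rose by 0.44 ± 0.12 with the shRNA in DM and was the 1 regulator that passed there. None of the listed mitochondrially encoded subunits was tested on either design.

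The MB design read 5 members, and 0 of them passed in any of the 5 comparisons, where 14% (DM against GM in vector cells), 7.64% (that contrast with the shRNA), 2.01% (the shRNA in DM), 0.483% (the shRNA in GM) and 0.736% (interaction) of 8691 tested genes passed in either direction. At an unadjusted p under 0.05 the limma fit had 2, 1, 0, 1 and 2 of the 5 in that order, again without the share of all tested genes. The brightest was a probe set of Uqcrh, the hinge protein of complex III, with 13345, 8222 and 8261 in DM vector cells and 5637, 7361 and 5674 in GM vector cells, a change of 0.65 ± 0.20 (adjusted p = 0.0517). Its DM arrays all lay above its GM arrays, and 1 DM array was well above the others. The other 4, of Ndufb2, Ndufb8, Ndufs4 and Sdha, had MB signals between 4.06 and 238. The MB arrays also varied more, with a median residual SD of 0.523 log2 units against 0.214 on MA.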

How the data were processed

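Biotin-labelled total RNA was read on 24 arrays of 2 designs (MA and MB, 12 each, in 4 groups of 3), with group and replicate number from the sample titles. The authors deposited linear intensities, 1 for each probe set, called signals here. The submitters' processing notes name MAS5, a method that combines matched and mismatched probes into 1 value; the sources used here give neither its version nor its settings. The deposited arrays had a trimmed mean of about 150 (2% taken off each end), so they had been scaled. Precision is limited by the number of arrays.

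Probe sets were named by the platform annotation, updated through RefSeq genes of GRCm38.p6, and those with several symbols named no gene. The fit was made in limma 3.58.1 under R 4.3.3, with 4 group means for log2(signal + 15) over the 12 arrays of a design, with eBayes and a mean-variance trend, Benjamini-Hochberg adjustment over all tested probe sets of a comparison and a threshold of 0.05. The pseudocount makes changes of dim genes too small. Each gene was read by its probe set with the highest mean. Simulated data had 14367 MA probe sets with spread as measured, for DM against GM in vector cells. There 69 of 100 changes of log2 1 and 99 of 100 of log2 2 were called, and on MB (19303) 7 and 55 of 100. No other probe sets were changed, and 9 unchanged ones were called on MA and 4 on MB. In the measured data 3429 MA probe sets rose and 3649 fell in this comparison. The adjusted p depends on the share changed, so the simulated rates do not carry over to it.

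The members and lists were chosen with earlier results of these data known. Named were, for DM against GM in vector cells, the largest passing changes (4 of complex I, 2 of each other complex, 1 where fewer passed); for the shRNA in each medium up to 6 passing members; up to 4 of the interaction; members that fell in DM; a member whose probe sets passed in opposite directions; and up to 2 genes of each related list (other subunits, muscle forms of cytochrome oxidase subunits, mitochondrially encoded subunits, assembly factors, regulators of mitochondrial genes). Cox7c, Ndufs6, Ndufs8, Ndufb10, Ndufa10, Cox5b and other members given by a change alone, and the Uqcrh value on MB, were added after their values were seen. Promoter windows are RefSeq's.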

Additional observations from a re-analysis of the deposited data

Results flagged for a closer look

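For 4 members the DM against GM change differed between the constructs by the interaction term of the limma fit, given as shRNA minus vector cells over 3 arrays per group. The difference was -1.5445 for Ndufs4 (adjusted p = 0.00317), -0.5531 for Cox6c (adjusted p = 0.0273), -0.4489 for Ndufa1 (adjusted p = 0.0333) and -0.4451 for Ndufv2 (adjusted p = 0.0439). In each the GM vector arrays were the lowest of the 4 groups. The difference for Ndufs4 passed under each alternative that was run, whereas those for Cox6c, Ndufa1 and Ndufv2 did not pass with median centring, without a filter or without a mean-variance trend (adjusted p-values of 0.0504 to 0.101).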

How the results depend on the processing

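Counts of members on MA that rose in DM against GM in vector cells (26) stayed between 21 and 26 under every scaling, pseudocount, filter, variance model, choice of arrays in the fit, replicate block and choice of probe set that was run. In shRNA cells (17) they stayed between 14 and 21, except for 10 with the mean of the probe sets of a gene. With the shRNA in DM (0 rose, 7 fell) 1 rose with quantile normalization; 12 fell with median centring, 11 with the mean of the probe sets, 3 without a mean-variance trend and 2 with only the groups compared in the fit. In GM (5 rose, 4 fell) 1 rose with median centring and 3 without a trend, and 2 fell without a filter and 1 without a trend. In the interaction (4 negative) 1 was negative with median centring, without a filter or without a trend. The labels do not say what a replicate number marks. Deviations from the group means of same-numbered arrays correlated at -0.139 to 0.293 on MA, over 0.1 in 6 of 13 pairs, and 8 of 13 arrays correlated best with their own number; on MB they correlated at -0.0391 to 0.0698, over 0.1 in 0 of 18 pairs. The numbers were not treated as a pairing, by a rule that asked for every pair to be over 0.1. This rule is no test of pairing, and the MA arrays may be paired in part. With the replicate number as a block, 22 rose in vector cells, 3 rose in GM with the shRNA and 1 interaction, that of Ndufs4, was negative. On MB 1 member rose in DM in vector cells with quantile normalization or a filter at 60, and 1 with the shRNA in GM with quantile normalization. Cox5a in vector cells reversed to -0.0988 with the mean of its probe sets. Of 663 values of named members under alternatives, 554 kept direction and side of the threshold, 108 kept direction but missed it and 1 reversed. The causes were not tested.

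Leaving out 1 array at a time, DM against GM gave 23 to 26 rises and 0 to 2 falls in vector cells and 12 to 20 rises in shRNA cells. The shRNA in DM gave 0 to 1 rises and 2 to 10 falls, and in GM 1 to 6 rises and 1 to 5 falls. The interaction gave 0 to 1 positive and 1 to 9 negative members. On MB DM against GM in vector cells gave 0 to 1 rises. The interaction cannot be fitted with only 2 groups and was not run that way.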
